A study of Mus musculus with 2 samples.

Results

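The 45 genes described here encode the parts of WNT signalling that sit outside the cell or at its surface: 19 WNT ligands, 10 Frizzled receptors, 5 co-receptors and kinase-type receptors, 4 R-spondins, 3 LGR receptors, 2 proteins of ligand secretion and 2 membrane ubiquitin ligases. They were chosen by gene symbol and not by a measured level, although earlier results of these data were known. All 45 were found among the 55536 genes of the tables made with release M21 of the GENCODE mouse annotation. Both libraries were polyA plus RNA-seq of the facial prominences, the outgrowths that form the face, from B6NCrl mouse embryos of mixed sex at 12.5 days. Replicate 1 pooled 120 embryos and replicate 2 pooled 88, each with 10 ng of RNA as input, oligo-dT priming, ERCC spike-in RNAs and Nextera tagmentation. The labels name no mutation, transgene or treatment, so both libraries formed 1 group and no condition could be compared. Levels are deposited TPM (a measure of RNA abundance per transcript length, relative to the whole library), given for each library and, where a mean is given, as mean ± SD over n = 2.

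WNT ligands are secreted proteins that carry a lipid, added by the acyltransferase Porcn and needed for their transport by Wls and for their binding to Frizzled receptors. With the co-receptors Lrp5 and Lrp6, a Frizzled receptor stabilises beta-catenin, and with Ror1, Ror2 or Ryk it steers cell polarity and movement instead. R-spondins bind Lgr4, Lgr5 and Lgr6 and draw the ubiquitin ligases Znrf3 and Rnf43 away from Frizzled receptors, which then stay longer at the surface. Loss of several of these genes, among them Wnt9b, Lrp6 and Rspo2, is known to give clefts of the lip or palate in mice.

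The stretch that carries the lipid is shown first because all 19 ligands share it, whatever their level. Each ligand had exactly 1 such site in the coding sequence of its GENCODE M21 transcript, recognised as codons for cysteine, histidine, glycine, any residue, serine, glycine, any residue and cysteine. It lay at codon 244 in Wnt5a, 213 in Wnt7b, 227 in Wnt6, 215 in Wnt11, 236 in Wnt5b and 209 in Wnt3a. The 24 bases of the site are given 5′ to 3′ on the coding strand, with the codon of the lipid-bearing serine in capitals, for the 5 most abundant ligands, for Wnt3a as the reference ligand of beta-catenin signalling, for Wnt10a as the site with fewest bases in common with that of Wnt5a, and for Wnt7a and Wnt9b because their sites are spelled alike.
Wnt5a: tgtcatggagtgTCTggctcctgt
Wnt7b: tgtcacggtgtgTCAggctcctgt
Wnt6: tgccatgggcttTCGggttcctgc
Wnt11: tgccatggggtgTCTggctcctgc
Wnt5b: tgtcacggagtcTCCgggtcctgc
Wnt3a: tgccacgggctaTCTggcagctgt
Wnt10a: tgccacggcaccTCAggcagctgc
Wnt7a: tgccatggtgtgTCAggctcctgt
Wnt9b: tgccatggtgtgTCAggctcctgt
Among the 18 sites compared with each other, 17 different spellings occurred. Between 14 and 21 of the 24 bases equalled those of Wnt5a, 14 in Wnt10a and 21 in each of Wnt2, Wnt7a, Wnt7b, Wnt9a, Wnt9b and Wnt11.

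Before the levels, the libraries themselves: expected counts (estimated reads) summed to 28705073 in replicate 1 and 41092194 in replicate 2. Markers of face mesenchyme (6 of 6 detected, summed TPM 716 and 715, led by Msx1 and Prrx1) and of ectoderm and epithelium (6 of 6, 319 and 332, led by Krt14 and Epcam) were present at like levels in both pools. The pools differed in other tissue: markers of oral first-arch mesenchyme were lower in replicate 2 (8 of 8 genes, summed TPM 549 and 350, led by Barx1 and Pitx1), as were those of neurons (6 of 6, 522 and 401, led by Tubb3 and Nefl). Higher in replicate 2 were markers of eye and lens (5 of 5, 191 and 438, led by Cryaa and Cryba1), of frontonasal mesenchyme (3 of 4, 145 and 202, led by Alx1 and Pax3) and of muscle (5 of 5, 314 and 384, led by Actc1 and Tnnc1). Endothelial (112 and 110, led by Emcn and Kdr), macrophage (68.7 and 68.5, led by C1qb and Fcer1g) and erythroid markers (9705 and 8740, led by Hbb-y and Hba-x) were also present, and no marker was at 0 in either library. In bulk tissue, fewer cells of a type and less RNA per cell cannot be told apart.

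Of the 45 members, 40 had a TPM of at least 1 in both libraries and are called detected, against 60.7% of all 22028 protein-coding genes. RNA of most members was thus found in the face at this age, at moderate levels: the median member stood at 9.26 TPM, between the median of all protein-coding genes (4.79) and that of the detected ones (21.5). Together the members summed to 724 TPM in replicate 1 and 748 in replicate 2. All 10 Frizzled receptors, all 5 co-receptors and kinase-type receptors, all 3 LGR receptors, both secretion proteins and both ligases were detected, so that the 5 members that were not detected were 4 ligands and 1 R-spondin.

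**Figure D1:**
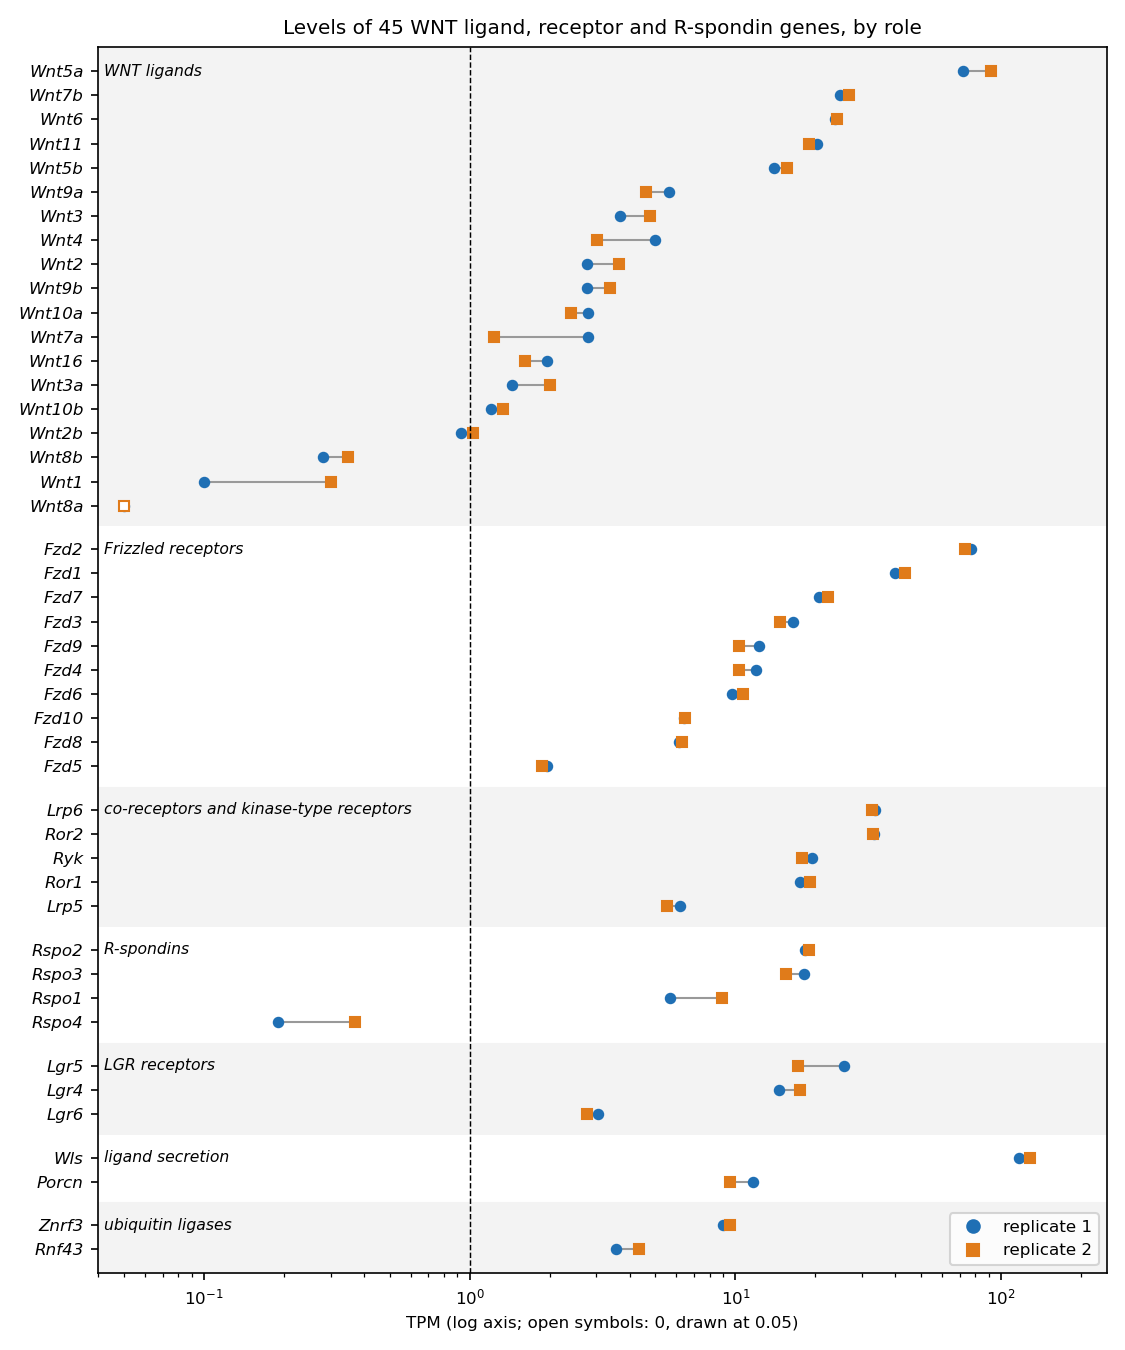
TPM of each member (log axis) in replicate 1 (circles) and replicate 2 (squares), grouped by role and ordered by mean, with a dashed line at 1 TPM. Wls, Wnt5a and Fzd2 stand at the right at 123, 81.8 and 75.0 TPM on average, and Wnt8a is at 0 in both libraries.

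Among the ligands, Wnt5a was far above the rest. It is the main ligand of the polarity branch, and mice without it have a truncated face. Wnt5a (ENSMUSG00000021994, chr14:28504750-28527448, plus strand, mm10) stood at 71.88 TPM in replicate 1 and 91.66 in replicate 2. That was 38.7% and 44.3% of the TPM of all 19 ligands, whose sum was 186 and 207. Next came Wnt7b, a ligand of surface ectoderm, at 24.70 and 26.83 TPM. Wnt6, also known from surface ectoderm, followed at 23.66 and 24.10 TPM. Wnt11, a relative of Wnt5a in its role in cell movement, stood at 20.20 and 18.98 TPM. Wnt5b, the close paralog of Wnt5a, stood at 14.02 and 15.67 TPM. In this order of gene TPM each of the 5 ligands was above the next in both libraries, and Wnt5b was above the remaining 14 in both. Transcripts annotated as protein coding held 35.0% and 40.7% of Wnt11 but 100% of Wnt5b. On those transcripts alone Wnt11 would be below Wnt5b in both libraries.

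Below these 5 lay a group of 9 ligands between 1.24 and 5.61 TPM in which the range of each overlapped that of the next by mean. Of the 36 pairs within this group, 14 had overlapping ranges and 22 did not. Wnt9a, known from joint formation, had 5.61 and 4.62 TPM. Wnt3 had 3.68 and 4.78 TPM, and Wnt9b, its neighbour on chromosome 11, 2.76 and 3.36. Both are expressed in facial ectoderm. Wnt4, known from kidney and reproductive tract, had 4.97 and 3.02 TPM, and Wnt2 had 2.77 and 3.64. Wnt10a, a gene of teeth and other ectodermal organs, had 2.78 and 2.40 TPM. Wnt7a, Wnt16 and Wnt3a closed the group at mean levels of 2.02 ± 1.10, 1.79 ± 0.233 and 1.73 ± 0.389 TPM. Wnt10b, at 1.20 and 1.34 TPM, had the lowest mean of the detected ligands, although Wnt7a was below it in replicate 2.

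The 4 ligands that missed the threshold were not alike. Wnt2b straddled it, at 0.93 TPM in replicate 1 and 1.03 in replicate 2. Wnt8b, known from the forebrain, had 0.28 and 0.35 TPM from 10 and 16 expected counts. Wnt1, a ligand of the dorsal midbrain and hindbrain, had 0.10 and 0.30 TPM from 4 and 18 counts. Wnt8a, a ligand of gastrulation, was at 0 counts in replicate 1 and in replicate 2, a count that leaves room for up to 0.108 and 0.0753 CPM (3 counts of the library's gene counts, counting error only).

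Mouse Wnt genes often lie beside each other, and 4 pairs of ligands had gene bodies within 100 kb. Wnt6 (chr1:74771892-74785322) and Wnt10a (chr1:74791516-74804179), on the same strand with a gap of 6.19 kb, differed 9.22-fold in mean TPM, 23.9 against 2.59. Wnt1 and Wnt10b on chromosome 15 lie head to head 11.7 kb apart, with means of 0.200 and 1.27. Wnt3a and Wnt9a on chromosome 11 lie head to head 16.2 kb apart, with means of 1.73 and 5.12. In these 3 pairs the higher gene was higher in both libraries. Wnt3 and Wnt9b lie head to head with a gap of 24.3 kb and were closer in level, at 4.23 ± 0.778 and 3.06 ± 0.424 TPM, although Wnt3 was the higher in both libraries.

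The Frizzled receptors, which bind the lipid and the tip of the ligand through an extracellular cysteine-rich domain, summed to 202 TPM in replicate 1 and 200 in replicate 2. Fzd2 (ENSMUSG00000050288, chr11:102604396-102608058, plus strand), a receptor whose mutation in people shortens limbs and alters the face, led with 76.77 and 73.16 TPM, or 38.0% and 36.6% of the Frizzled sum. Fzd1 followed with 39.79 and 43.51 TPM and Fzd7, which belongs to the same subfamily as Fzd1 and Fzd2, with 20.64 and 22.28. These 3 closely related receptors were the top 3 in both libraries under release M21. Under the older annotation release M4, Fzd3 was above Fzd7 in both libraries. Fzd3, a polarity receptor known from axon growth, came next at 16.49 and 14.76 TPM.

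Fzd9, Fzd4 and Fzd6 could not be put in order under release M21. Fzd9 had 12.26 and 10.28 TPM, Fzd4, which is also the receptor of norrin in blood vessels, 11.97 and 10.35, and Fzd6, the partner of Fzd3 in hair and tissue polarity, 9.69 and 10.64. Fzd10 (6.39 and 6.44 TPM) and Fzd8 (6.11 and 6.32 TPM) were close and stood in the same order in both libraries under release M21, an order that was the reverse under the older annotation release M4. Fzd5, a receptor of the developing eye, was the lowest at 1.95 and 1.88 TPM.

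Of the co-receptors of the beta-catenin branch, Lrp6 was well above Lrp5, at 33.58 and 32.54 TPM against 6.17 and 5.54. Ror2, the receptor kinase through which Wnt5a acts in limb and face, had 33.08 and 32.85 TPM, a range that overlapped that of Lrp6. Lrp6 was the lower under release M4, and also in M21 if its short retained-intron transcript Lrp6-205 is left out. Its paralog Ror1 had 17.56 and 19.03 TPM. Ryk, a WNT receptor with an inactive kinase domain, had 19.49 and 17.84 TPM, so that the ranges of Ror1 and Ryk overlapped. The 5 genes summed to 110 and 108 TPM.

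R-spondin RNA came almost wholly from 3 of the 4 genes. Rspo2 had 18.29 and 18.92 TPM and Rspo3 18.14 and 15.53 TPM, together the larger part of an R-spondin sum of 42.3 and 43.7. Rspo1 had 5.67 and 8.91 TPM. Rspo4, the R-spondin of nail formation, had 0.19 and 0.37 TPM from 8 and 22 counts. Of their receptors, Lgr5, a WNT target gene in many tissues, had 25.67 and 17.27 TPM and Lgr4 14.59 and 17.44, so that Lgr5 was the higher in replicate 1 and both were alike in replicate 2. Lgr6 had 3.03 and 2.76 TPM. Of the ligases on which this branch acts, Znrf3 had 8.96 and 9.56 TPM and Rnf43 3.54 and 4.33, below Lgr4 and Lgr5 and above Lgr6 in both libraries. That order is of gene TPM. Transcripts annotated as protein coding held 50.1% and 47.8% of Rnf43 but 100% of Lgr6, and on those alone Rnf43 would be below Lgr6 in both libraries.

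Wls, the carrier that brings ligands to the cell surface, was the highest of all 45 members at 116.61 and 128.56 TPM, which is percentile 94.2 among protein-coding genes. That rank is of gene TPM. Transcripts annotated as protein coding held 54.1% and 52.0% of Wls but 100% of Fzd2, and on those alone Wls would be below Fzd2 in both libraries. Porcn, the enzyme that adds the lipid, had 11.65 and 9.51 TPM. The summed ligands thus stood above Wls and far above Porcn in both libraries, as levels of RNA per length.

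**Figure D2:**
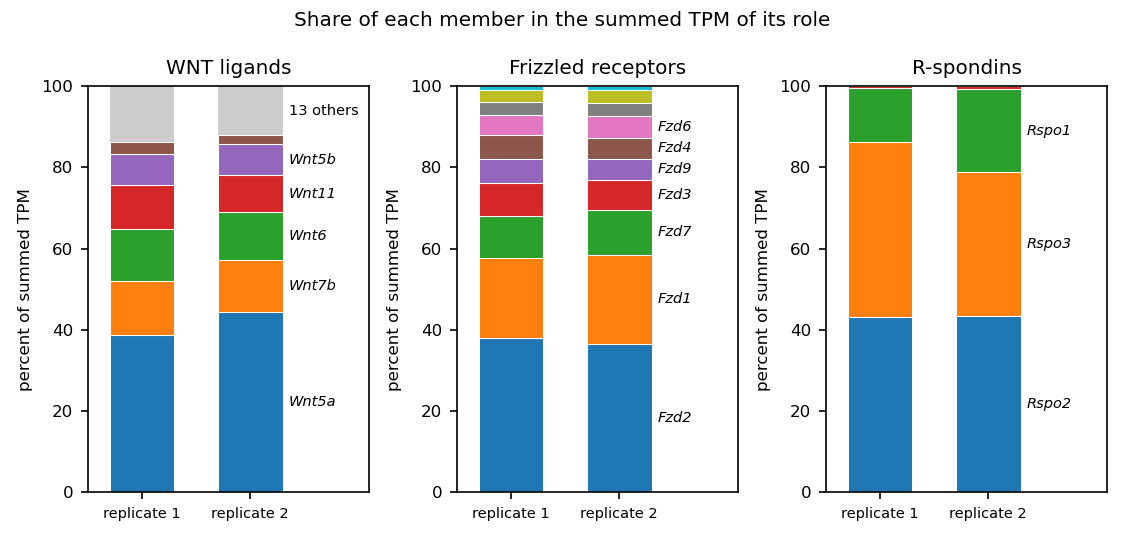
Percent of the summed TPM of its role held by each member in replicate 1 (left bars) and replicate 2 (right bars), for ligands, Frizzled receptors and R-spondins; segments under about 3.5% are not named. Wnt5a holds 38.7% and 44.3% of the ligand sum, Fzd2 38.0% and 36.6% of the Frizzled sum, and Rspo2 43.2% and 43.3% of the R-spondin sum.

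The rest of the pathway was also present: of 49 other WNT pathway genes, 46 were detected. The mediator Ctnnb1 (beta-catenin) stood at 610.07 and 626.51 TPM and Csnk1a1, a kinase of its destruction complex, at 242.75 and 232.55. All 8 nuclear factors were detected, with the DNA-binding factors Tcf7l2 at 107.61 and 116.05 TPM and Lef1 at 83.72 and 83.91. All 5 feedback genes, whose transcription WNT signalling raises in many tissues, were detected, led by Nkd1 at 64.81 and 69.57 TPM and Nkd2 at 19.77 and 21.67. Dvl2 (55.23 and 52.52 TPM) and Dvl3 (26.02 and 25.96 TPM) led the 3 Dishevelled genes, which relay the signal from Frizzled receptors.

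Secreted antagonists were more abundant than the ligands. Sfrp2, which binds WNT ligands outside the cell, had 410.82 and 411.58 TPM, and Sfrp1 52.01 and 54.15, within a sum of 669 and 663 TPM for 12 antagonists of which 10 were detected. The antagonists of Lrp6 that were not detected were Dkk4 (0.80 and 0.72 TPM) and the bone gene Sost (0.11 and 0.08 TPM). Both Dickkopf receptors, Kremen2 (19.69 and 18.32 TPM) and Kremen1 (18.26 and 19.27 TPM), were detected. Of 8 polarity genes 7 were detected, led by Ptk7 at 101.82 and 104.81 TPM and Prickle1 at 32.89 and 40.50, while Celsr3 missed the threshold at 1.62 and 0.91 TPM. Gpc3 (727.63 and 674.41 TPM) and Gpc6 (58.13 and 60.08 TPM) led the group of Lrp4 and the glypicans, cell-surface proteoglycans that hold WNT ligands.

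How far the pools agreed was described by the log2 ratio of TPM + 1, replicate 2 over replicate 1, and by the ratio of expected counts scaled to the summed gene counts, with its exact 95% interval. These set 1 library against 1 library, so no test was possible and the intervals cover counting error only. The 40 members whose mean TPM reached 1 had a median log2 ratio of 0.02, and all 16529 such genes one of 0.00. Upward by 0.5 or more on the log2 scale went 1 of the 40 members, against 377 of the 16529 genes (2.28%). Downward as far went 3 of the 40, against 496 of the 16529 (3.00%).

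The member higher in replicate 2 was Rspo1, an R-spondin (chr4:124986430-125009099, plus strand). It went from 5.67 to 8.91 TPM and from 173 to 404 counts, a log2 ratio of 0.57 and a scaled count ratio of 1.64 (interval 1.37 to 1.97). On TPM scaled to the spike-ins its log2 ratio was 0.45, below the threshold. The other R-spondins at a mean TPM of at least 1 did not share this: Rspo2 had a log2 ratio of 0.05 and Rspo3 of -0.21.

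Lower in replicate 2 were Wnt4, Lgr5 and Wnt7a. Wnt4 went from 4.97 to 3.02 TPM and from 375 to 322.91 counts, a log2 ratio of -0.57 and a scaled count ratio of 0.603 (0.518 to 0.702). Lgr5 went from 25.67 to 17.27 TPM and from 1872.98 to 1910 counts, a log2 ratio of -0.55 and a scaled count ratio of 0.714 (0.670 to 0.762). On counts with TMM size factors the log2 ratio of Lgr5 was -0.46, so that it missed the threshold. Part of its TPM gap lay in the short transcript Lgr5-203 of 607 bases, at 2.89 and 0.49 TPM on 27.11 and 6.45 reads. Transcripts annotated as protein coding held 76.0% and 83.5% of Lgr5, and on those alone it would also miss the threshold.

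Wnt7a had the widest gap in TPM and a much narrower one in counts. It went from 2.80 to 1.24 TPM, a log2 ratio of -0.76, but from 97 to 100 counts, a scaled count ratio of 0.722 (0.541 to 0.965). In replicate 1 the short transcript Wnt7a-203 of 293 bases carried 1.16 of the TPM on 4.15 estimated reads, and in replicate 2 it had 0. The full-length transcript Wnt7a-201 of 3172 bases had 1.64 and 1.24 TPM on 92.85 and 100 reads. On counts with TMM size factors the log2 ratio of Wnt7a was -0.34, below the threshold. The oral first-arch and neuron markers, which were lower in replicate 2 in 8 of 8 and 6 of 6 genes, moved the same way as Wnt4, Lgr5 and Wnt7a, and the frontonasal, eye and lens, and muscle markers the same way as Rspo1. Their part in these differences was not tested.

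By counts alone, 13 of the 40 members had an interval above 1, against 2168 of all 16529 such genes (13.1%). Below 1 lay the interval of 10 of the 40, against 2475 of the 16529 (15.0%). Both shares were larger among the members. The width of an interval depends on the number of reads, and the genes were not matched for it, so the shares are not a like comparison. Many of the members' ratios were small. Wnt5a, the member with most counts, went from 5938.99 to 10299.18, a scaled ratio of 1.21 (1.18 to 1.25), and Fzd2 from 5044 to 6818, a ratio of 0.947 (0.913 to 0.982). Lgr4 had a ratio of 1.17 (1.09 to 1.26), on the other side of 1 from its paralog Lgr5. Porcn had a ratio of 0.802 (0.695 to 0.925) and Wls, the other secretion gene, 1.07 (1.04 to 1.11). Wnt3, Wnt9b and Wnt3a had ratios of 1.29 (1.08 to 1.54), 1.21 (1.02 to 1.43) and 1.37 (1.02 to 1.85). The summed ligands had a ratio of 1.13 (1.10 to 1.15), and 1.02 (0.987 to 1.06) without Wnt5a, a sum chosen after the values were seen. The secretion genes summed to a ratio of 1.06 (1.02 to 1.09) and the LGR receptors to 0.906 (0.866 to 0.947). For the Frizzled receptors (0.991, 0.971 to 1.01), the co-receptors and kinase-type receptors (0.985, 0.959 to 1.01), the R-spondins (0.997, 0.944 to 1.05) and the ligases (1.05, 0.981 to 1.13) the interval held 1.

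**Figure D3:**
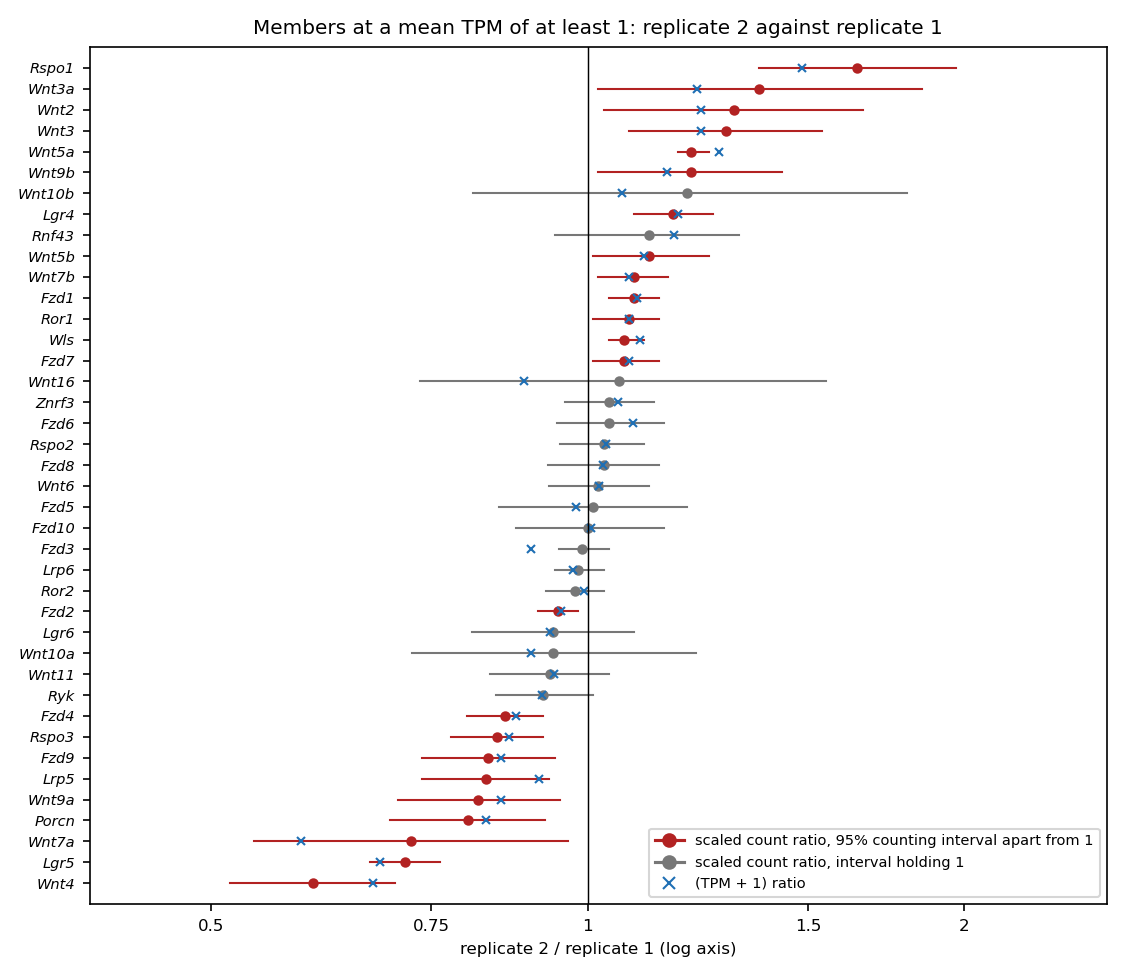
Replicate 2 over replicate 1 (log axis) for the 40 members at a mean TPM of at least 1: scaled count ratio with its exact 95% counting interval (points and bars, red where the interval lies apart from 1) and the ratio of TPM + 1 (crosses). Rspo1 is at the top at 1.64 and Wnt4 at the bottom at 0.603; the cross of Wnt7a lies left of its count interval's centre.

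Of the other pathway genes, 47 reached a mean TPM of 1. Upward by 0.5 or more went 0 of the 47, against 2.28% of all such genes, and downward 3 of the 47, against 3.00%. The 3 were Dvl1 (13.28 and 6.47 TPM, log2 ratio -0.93), the destruction-complex scaffold Axin1 (21.80 and 11.99 TPM, -0.81) and the antagonist Frzb (63.62 and 40.09 TPM, -0.65). These 3 were named after their values were seen. Axin2, the paralog of Axin1 that serves as a feedback gene, had 11.87 and 13.71 TPM.

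The same reads had been counted by the authors with the older annotation release M4 as well, which shows how much a level rests on the gene model. Of the 45 members, 35 were lower in M21 than in M4 in both libraries and 5 higher. Most shifts were small: the median log2 ratio of M21 over M4 was -0.07 in each library, against -0.06 over all genes. Fzd3 was the member that differed by at least 0.5 in both libraries, and it was lower in M21, as were 1.25% of genes at a mean TPM of at least 1. It had 25.95 and 26.0 TPM in M4 and 16.49 and 14.76 in M21, log2 ratios of -0.62 and -0.78. Its counts were higher in M21, 3390 against 1840 in replicate 1 and 4794 against 2615 in replicate 2. Its length differed by more than its counts, with 4157 bases in M4 and 11253 and 12520 in M21 (the mean over its transcripts, weighted by abundance in each library).

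Other models had changed as well. Fzd8 went from 3346 to 5974 bases and from 8.64 and 8.7 TPM to 6.11 and 6.32, and Fzd4 from 13.81 and 12.29 TPM to 11.97 and 10.35. Rspo3 went from 24.94 and 21.15 TPM to 18.14 and 15.53 while its counts hardly moved, from 1000 to 998.4 and from 1203 to 1205.57. Lrp6 went the other way, from 23.47 and 24.19 TPM to 33.58 and 32.54, with log2 ratios of 0.50 and 0.41. Wls had 96.73 and 104.78 TPM in M4 and 116.61 and 128.56 in M21.

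Of the 237 pairs of members within a role, 3 stood in opposite orders under the 2 releases, each order being the same in both libraries. In M4, Rspo3 was above Rspo2 in both libraries (24.94 and 21.15 TPM against 17.62 and 18.15), and in M21 below it. In M4, Fzd3 was above Fzd7 in both libraries (25.95 and 26.0 TPM against 21.78 and 23.51), and in M21 below it. In M4, Fzd8 was above Fzd10 in both libraries (8.64 and 8.7 TPM against 6.74 and 6.8), and in M21 below it. Other pairs were apart under 1 release alone, and not all of them are named here. Ror2 was above Lrp6 in M4 (34.94 and 34.69 TPM against 23.47 and 24.19) and overlapped it in M21. Wnt7b, above Wnt6 in M21, overlapped it in M4 (24.82 and 27.15 TPM against 24.93 and 25.38). Fzd4 and Fzd9 overlapped Fzd6 in M21. In M4 they were above it (13.81 and 12.29 TPM, and 12.94 and 10.85, against 9.94 and 10.39). Wnt5a and Fzd2 led their roles under either release.

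**Figure D4:**
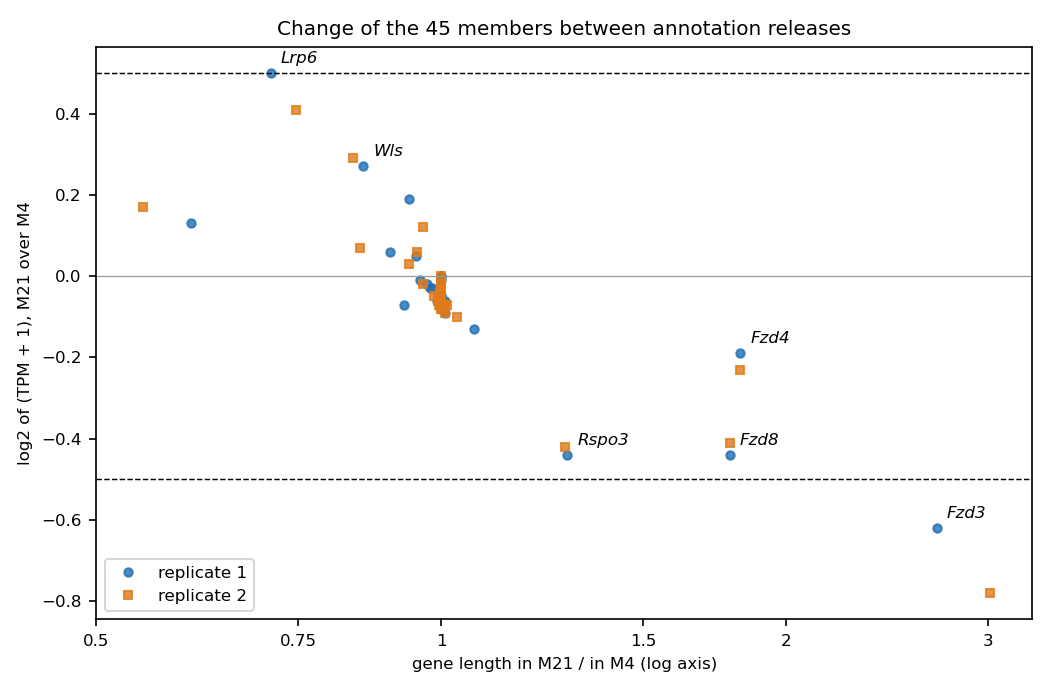
Log2 ratio of TPM + 1 in release M21 over release M4 (vertical axis) against the ratio of the gene's length in M21 to that in M4 (horizontal log axis), for the 45 members in replicate 1 (circles) and replicate 2 (squares); dashed lines mark 0.5 and -0.5. Members with a longer model in M21 (Fzd3, Fzd8, Fzd4, Rspo3) lie below 0, and Fzd3 lies lowest at -0.62 and -0.78.

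The TPM of a gene is the sum over its annotated transcripts, and in several members a good part of it came from transcripts not annotated as protein coding. Of the 45 members, 16 had 1 annotated transcript and 29 had several. In 26 of these 29 the same transcript led in both libraries, and in 19 it held at least 50% of the gene in both. Wnt5a was split between Wnt5a-201 of 7010 bases (43.07% and 42.13%) and Wnt5a-202 of 3650 bases (39.67% and 35.84%), both protein coding, which start at different places. Transcripts annotated as protein coding held 82.7% and 78.0% of Wnt5a. Short transcripts outside that class added TPM on few reads. Wnt5a-206 of 361 bases had 7.05 and 10.83 TPM on 34.05 and 74.2 reads, and Wnt5a-204 of 337 bases 1.48 and 5.1 TPM on 6.51 and 31.75 reads. Wnt5a-205 of 254 bases went the other way, with 1.67 and 1.28 TPM on 4.76 and 5.2 reads.

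Wnt11 was led by Wnt11-202, a transcript annotated for nonsense-mediated decay (destruction of RNA with an early stop codon), at 44.6% and 45.12%, and protein-coding transcripts held 35.0% and 40.7% of the gene. Wls, the highest member, had 54.1% and 52.0% of its TPM on protein-coding transcripts and 30.82% and 31.58% on Wls-206, annotated for nonsense-mediated decay. In Rnf43 a retained-intron transcript led with 49.85% and 39.61%. The retained-intron transcript Lrp6-205, of 941 bases, carried 25.71% and 23.73% of Lrp6, or 8.63 and 7.72 TPM, on 134.0 and 170.0 reads, while the full-length Lrp6-201 carried 19.53 and 19.59 TPM on 3337.68 and 4747.57 reads. In such genes the TPM of the gene is above that of its protein-coding transcripts.

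**Figure D5:**
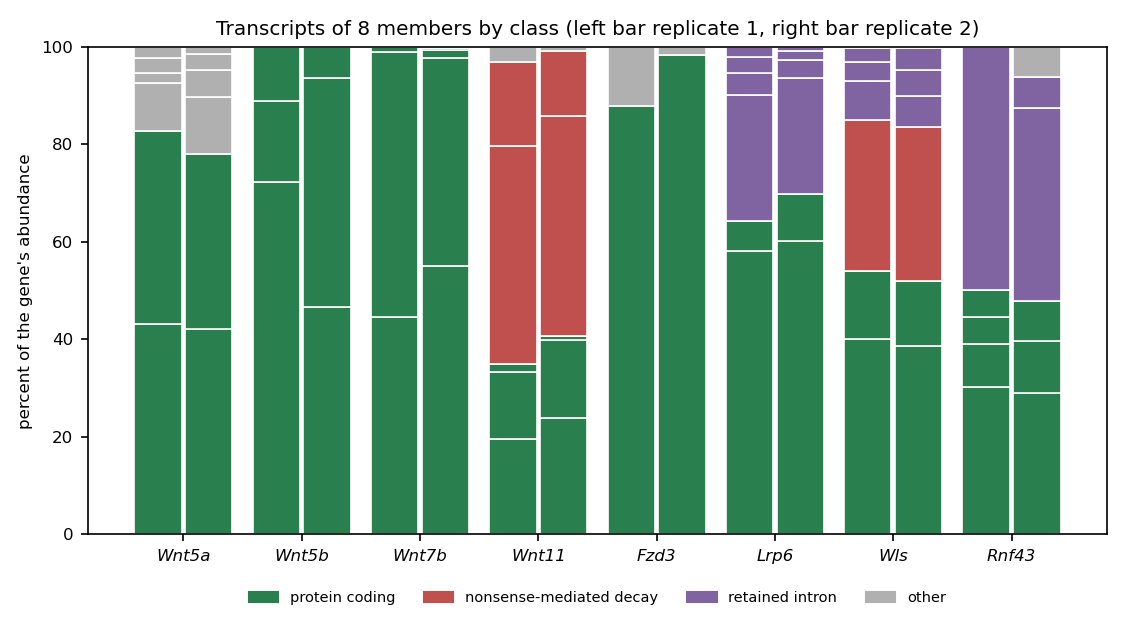
Percent of each gene's abundance by transcript, coloured by the annotated class, for 8 members with replicate 1 as the left bar and replicate 2 as the right bar. Segments within a colour are separate transcripts; Wnt11 has protein-coding shares of 35.0% and 40.7%, and Rnf43 of 50.1% and 47.8%.

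In Wnt5b, Wnt7b and Wnt10b the leading transcript differed between libraries. In Wnt7b, Wnt7b-202 held 54.31% in replicate 1 and 42.76% in replicate 2, and Wnt7b-201 held 44.61% and 55.03%. In Wnt10b the shares rested on few reads, between 11.41 and 28.98 for each of its 3 transcripts above 0. In Wnt5b, Wnt5b-203 held 72.25% and 46.69% and Wnt5b-204 16.68% and 47.04%. The latter pair begins at nearly the same place, so that the start they share carried 88.9% and 93.7% of Wnt5b, and the share by start site moved less than the share by transcript.

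Upstream sequences are shown for Wnt5b and Wnt11, the only members with a TCF and LEF motif, described below, before a listed start. Estimated transcript levels differed between their annotated start sites. They also differed between the 2 starts of Rnf43 (30.3% and 28.9% of the gene against 5.67% and 8.31%), which is not shown. The share of a start is the estimated TPM of transcripts annotated to begin within 100 bases of it. Transcript ends were not measured, so promoter use was not tested. RefSeq promoters on GRCm38.p6 were found for 30 members, 34 promoters in all. The members with no entry were Wnt5a, Wnt7b, Wnt8a, Wnt10a, Fzd2, Fzd3, Fzd6, Fzd8, Lrp5, Lrp6, Rspo2, Rspo3, Lgr5, Porcn and Znrf3. The 250 bases before each start were searched on both strands for the core motif of the TCF and LEF factors (CTTTGAT, or ATCAAAG on the other strand) and for the TATA motif TATAAA. The first line is the distal start of Wnt5b (chr6:119544348-119544597, minus strand), which carried 88.9% and 93.7% of the gene. The second is its innermost start (chr6:119449387-119449636, minus strand), at 0% in both libraries. The third is the first start of Wnt11 (chr7:98834862-98835111, plus strand), which carried 60.0% and 61.9% of that gene. Each runs 5′ to 3′ toward the start, with the TCF and LEF motif in capitals where these letters occur.
Wnt5b distal start: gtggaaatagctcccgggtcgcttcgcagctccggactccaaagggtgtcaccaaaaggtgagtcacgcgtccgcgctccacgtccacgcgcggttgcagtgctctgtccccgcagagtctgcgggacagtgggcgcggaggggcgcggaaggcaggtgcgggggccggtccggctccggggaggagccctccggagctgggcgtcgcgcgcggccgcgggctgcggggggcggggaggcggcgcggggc
Wnt5b innermost start: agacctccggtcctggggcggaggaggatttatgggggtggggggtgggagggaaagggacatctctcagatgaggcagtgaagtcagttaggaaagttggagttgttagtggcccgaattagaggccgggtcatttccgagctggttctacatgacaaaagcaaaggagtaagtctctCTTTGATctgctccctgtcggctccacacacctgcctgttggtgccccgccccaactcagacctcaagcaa
Wnt11 first start: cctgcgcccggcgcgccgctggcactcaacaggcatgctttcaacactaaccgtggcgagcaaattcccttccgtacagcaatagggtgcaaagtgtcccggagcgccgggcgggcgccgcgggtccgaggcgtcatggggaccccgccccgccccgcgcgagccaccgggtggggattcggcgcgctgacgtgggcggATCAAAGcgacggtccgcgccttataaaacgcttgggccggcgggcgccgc
The distal start of Wnt5b was rich in CpG, with 75.2% G and C and 1.02 times the CpG number that its base composition gives. The innermost start, which holds a TCF and LEF motif, had 55.6% and 0.372. The middle start of Wnt5b, with 11.1% and 6.26% of the gene, had 53.2% and 0.231. In Wnt11 the first start holds a TCF and LEF motif and a TATAAA on 70.8% G and C, and the second start, with 37.0% and 37.3% of the gene, holds neither. Of the 12.1 and 11.8 TPM at the first start, 9.01 and 8.56 were Wnt11-202, annotated for nonsense-mediated decay. Its protein-coding transcripts Wnt11-203 (2.76 and 3.03 TPM) and Wnt11-201 (0.34 and 0.16) together stayed below Wnt11-205 of the second start (3.97 and 4.54). On protein-coding transcripts alone the second start was thus the higher in both libraries.

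Over the 34 member promoters, 2 held the TCF and LEF motif (5.88%, against 3.21% of the 32851 promoters in the table) and 3, those of Wnt11, Fzd1 and Ryk, held TATAAA (against 12.4% of all). A match of letters says nothing on binding. The member promoters were richer in CpG than most: the median ratio of observed to expected CpG was 0.758 against 0.373 for all promoters, and median G and C content was 67.4% against 52.4%. A ratio of at least 0.6 with at least 50% G and C was found in 24 of the 34, against 31.0% of all promoters. These included the promoters of Wnt1, Rspo4 and Wnt2b, which were not detected, with ratios of 0.735, 0.803 and 0.887. That of Wnt8b, at 0.342, was not among them.

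Some levels depend on how shared reads were divided. Expected counts of 7 members (Wnt4, Wnt5a, Wnt7b, Fzd5, Fzd6, Rspo3 and Lgr5) were not whole, so reads matching other features had been divided between them. Such counts were not particular to these members: of all rows, 14.9% in replicate 1 and 15.6% in replicate 2 were not whole. An exon of a gene on the opposite strand overlapped 6 members (Wnt5a, Wnt7b, Wnt11, Fzd5, Fzd6 and Rspo3), and whether the counting used strand is not stated in the sources used here. Of these partners Gm2670, opposite Wnt5a, had most counts, 259 and 409 against 5938.99 and 10299.18 for Wnt5a.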

How the data were processed

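PolyA plus RNA-seq of embryonic mouse facial prominence was deposited as gene and transcript tables on mm10, made by the authors with GENCODE releases M21 and M4, per the deposited descriptions. The aligner, quantifier and strand setting, not given in the sources used here, could not be checked. The tables hold, per the file headers, expected counts (reads shared by several features divided between them), TPM as maximum-likelihood and posterior mean estimates, FPKM, and the percent of a gene held by each transcript. TPM, expected count, FPKM and percent values were used as the authors deposited them, and expected counts were rounded for counting intervals. TPM is relative to all rows of a table, spike-ins included; rows that name no gene held 2.85% and 3.10% of the counts and stayed out of count scaling. The summed counts of genes were 27887968 and 39819334.

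A gene was called detected where its TPM reached 1 in each library. Replicates and releases were compared by log2(TPM + 1), which understates differences of low genes, and called at 0.5. Count ratios carry exact conditional (Clopper-Pearson) 95% intervals, which cover counting error only, since 1 library is set against 1 library. Amplified reads that carry no molecular identifier cannot be taken as separate molecules, so the intervals may be too narrow even for that. With 2 libraries an exact sign-flip permutation test cannot go below p = 0.5, so no p-value is given. The labels say that the replicates are separate pools of embryos. TMM factors came from edgeR 4.0.16 in R 4.3.3, everything else from Python 3.11.15 with pandas 2.3.3 and scipy 1.17.1. The ratio procedure was tested on simulated data that held counting error alone, which could not show an effect of amplification. Members and lists were chosen with earlier results of these data known. Named genes were all 45 members, the 2 highest of each pathway group and marker list, and pathway genes not detected; others are said to have been named after their values were seen. A marker gene of 1 list is not reported here, and its list was summed without it. Protein sequences were not analysed here. The lipid sites were added after the files had been examined, and read from GENCODE M21 transcripts; promoter sequences are those of RefSeq on GRCm38.p6.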

Additional observations from a re-analysis of the deposited data

How the results depend on the processing

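With 2 libraries of 1 group, no difference here has a replicate check, and the depth limits members with few counts. No paired analysis was possible because there is 1 group, so that no other group shares its replicate numbers. The number of detected members was between 35 and 42 under the other settings, 35 at a minimum of 2 TPM and 39 in release M4, where Wnt10b missed the threshold; without replicate 1 it was 41 and without replicate 2 it was 40. Members with a replicate difference of at least 0.5 numbered 4; on counts with TMM size factors or scaled to the summed gene counts they numbered 2 (Wnt4 and Rspo1), at a size of at least 1 there were 0 and at 0.25 there were 9. A pseudocount of 0.1 gave 6, adding Wnt1 and Rspo4. Scaling on the summed spike-ins moved the median of all genes at a mean TPM of at least 1 by -0.13 and that of the members to -0.11, 0.02 above all genes. Wnt5a held 41.5% of the ligand TPM on average, between 38.7% and 44.3% when either replicate was left out, and 56.2% of ligand counts, which are not per length. Fzd2 held 37.3% of the Frizzled TPM (36.6% to 38.0% with a replicate left out), 35.2% in M4 and 28.9% of counts. Rspo2 held 43.3% of the R-spondin TPM (43.2% to 43.3% with a replicate left out), 42.8% of posterior mean TPM, 36.6% in M4, where Rspo3 led, and 47.4% of counts. The release difference of at least 0.5, held by Fzd3, was held by 0 members at a size of at least 1. Leading transcripts held at least 50% in 21 members without replicate 1 and in 22 without replicate 2, against 19 in both. Of the 45 member levels, 11 moved by more than 1 SD on posterior mean TPM, 16 in M4, 19 on TPM over genes alone and 41 on FPKM. Detected pathway genes numbered between 45 and 48. The causes of these shifts were not tested, other than that FPKM, which multiplies every level by about 0.639, lowers the number detected by its scale.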
